A study of Mus musculus with 36 samples.

Results

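The CC chemokines described here are the 10 genes Ccl2, Ccl3, Ccl4, Ccl5, Ccl6, Ccl7, Ccl8, Ccl9, Ccl12 and Ccl24, which were taken by gene name from the deposited count table. They are 10 of its 24781 genes. Chemokines are small secreted proteins that attract white blood cells through receptors on the cell surface, and the CC family is named after a pair of adjacent cysteines. In tumours, ligands of the receptor Ccr2 draw monocytes out of the blood, and these can become tumour-associated macrophages. Ligands of Ccr1 draw monocytes, macrophages and activated T cells, and the ligand of Ccr3 is best known for drawing eosinophils.

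The study asked how B cells and the metabolite GABA shape the immune cells of MC38 tumours, a mouse colon carcinoma model. It sorted 100 macrophages (CD45+CD11b+F4/80high) or 100 CD8+ T cells (CD45+TCRbeta+CD8+) per library on day 7 after inoculation, and counted barcoded RNA molecules. The donors were WT mice, muMt-/- mice, or muMt-/- mice carrying a slow-release GABA pellet, with 6 libraries for each cell type in each of the 3 groups and 36 libraries in all. The muMt-/- line lacks mature B cells through a defect in the Ighm gene and keeps its T cells and macrophages. The labels give the treatment of WT and muMt-/- mice without GABA as none, whereas the study's methods describe placebo pellets, and its figure legend on macrophages of day 7 calls both groups placebo-treated. They are called control mice here. By the study's account muMt-/- mice were C57BL/6J, and WT mice were either that strain or C57BL/6N. The study used mice of both sexes within a stated range of ages, as littermates or matched for age and sex. The labels give no age or sex for a library. Each library came from 1 mouse, and the labels call the 6 libraries of a group independent preparations. GABA was given only to muMt-/- mice in these libraries, so its effect in mice with B cells was not measured.

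Each macrophage library held 100254 to 304100 molecules, and each CD8+ T cell library held 22896 to 98015. Among macrophage libraries the median was 242756 molecules in WT, 149960 in muMt-/- and 192775 in GABA-treated muMt-/- mice. Among CD8+ T cell libraries it was 42065.5, 67121.5 and 80283 molecules in the same order. Depth therefore differed between the groups, and in opposite order in the 2 cell types for WT and muMt-/- mice. All levels below are numbers of molecules, each counted once at the poly(A) end of its transcript, either divided by a size factor within the cell type (normalized number) or scaled to a common total for every library in the standard unit CPM. Libraries hold sorted cells in bulk, so fewer cells of a type and less RNA per cell cannot be told apart.

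The genes behind the sort were present where they should be. Adgre1, which encodes F4/80, had 21 to 84 molecules in every macrophage library. Cd8a had 16 to 71 molecules in every CD8+ T cell library and at most 2 in a macrophage library. The 20 T cell markers, of which 17 are in the table, had a summed level of at most 119.8 CPM in any macrophage library, against 4093 to 14650 in CD8+ T cell libraries. Macrophage transcripts in CD8+ T cell libraries were more frequent, and their medians differed between the groups. The 22 macrophage markers had a median summed level of 636 CPM in WT, 2119.6 in muMt-/- and 3009 in GABA-treated muMt-/- CD8+ T cell libraries, with 19, 22 and 21 of them detected and Ctss the most abundant. The highest sums in CD8+ T cell libraries were 8643 CPM in muMt-/- replicate 1, 4805 in GABA-treated replicate 1 and 4652 in GABA-treated replicate 3. In macrophage libraries the same sum had a median of 23379, 20017 and 21616 CPM. Adgre1 had 0 molecules in all WT CD8+ T cell libraries, and was found in 3 of 6 muMt-/- libraries with at most 3 molecules and in 3 of 6 GABA-treated ones with at most 6 (mean 24.1 CPM).

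All 10 chemokines were detected in both cell types. Together they made up 0.250% ± 0.0503 (SD, n = 6) of the molecules of WT macrophages, 0.226% ± 0.0333 in muMt-/- and 0.221% ± 0.0649 in GABA-treated muMt-/- macrophages. In CD8+ T cells their share was 0.748% ± 0.160 (SD, n = 6) in WT, 0.700% ± 0.411 in muMt-/- and 0.793% ± 0.320 in GABA-treated mice. Those shares were larger in T cells than in macrophages in every group's mean, and the family members behind them differed. Ccl2 was the most abundant member in macrophages, with a mean of 34.7% of the members' molecules in WT, 26.4% in muMt-/- and 29.7% in GABA-treated mice. Ccl4 took that place in CD8+ T cells, with 45.6%, 50.4% and 38.6%.

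In WT macrophages the order of the mean CPM levels was Ccl2, Ccl12, Ccl7, Ccl5, Ccl4, Ccl3, Ccl9, Ccl6, Ccl8 and Ccl24. Only Ccl2 and Ccl12 were neighbours in that order whose ranges over the 6 libraries did not overlap. The WT order began with the 3 ligands of Ccr2, which did not hold in the other groups, where it began with Ccl2, Ccl5, Ccl4, Ccl12 and Ccl7 in muMt-/- and with Ccl2, Ccl12, Ccl5 and Ccl7 in GABA-treated mice. Per kilobase of exon, Ccl2 was again highest at 780.4 CPM per kilobase, followed by Ccl12 at 690.2 and Ccl7 at 396. On that scale Ccl4 stood before Ccl5, and Ccl8 and Ccl6 stood before Ccl9. Each molecule is counted once at its end, so the per-kilobase scale may favour short transcripts.

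In CD8+ T cells of WT mice the order by CPM was Ccl4, Ccl3, Ccl5, Ccl2, Ccl9, Ccl7, Ccl24 and Ccl6, with no molecule of Ccl8 or Ccl12. The ranges of Ccl5 and Ccl2 did not overlap, so Ccl4, Ccl3 and Ccl5 formed a top group of 3. Per kilobase the top group was the same, with 5275 CPM per kilobase for Ccl4, 3011 for Ccl3 and 1513 for Ccl5.

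Macrophages and CD8+ T cells of the same group were compared in an edgeR fit of all 36 libraries, with p-values adjusted over 8477 genes and a threshold of 0.05 that defines a called gene. In WT mice 9 of the 10 members were called, 6 higher in macrophages and 3 higher in T cells, where 22.7% of all genes were called. In muMt-/- mice 7 members were called, 5 higher and 2 lower in macrophages, against 21.3% of all genes. In GABA-treated muMt-/- mice 9 were called, 6 higher and 3 lower, against 22% of all genes. The members' median log2 difference, macrophages minus T cells, was 2.29 in WT, 1.69 in muMt-/- and 1.80 in GABA-treated mice, against 0.35, 0.10 and 0.11 over all genes. With Ccl8 and Ccl12 placed at the bounds given below, where T cells had no molecule, those medians were the same.

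Ccl2, the main attractant of Ccr2-bearing monocytes, was a macrophage transcript in all 3 groups. Its mean level in WT mice was 888 CPM in macrophages and 162 in T cells, a log2 difference of 2.57 ± 0.48 (SE, adjusted p = 3.12e-05, edgeR). In muMt-/- mice it was 2.47 ± 0.48 and in GABA-treated mice 2.54 ± 0.47. Ccl7, another Ccr2 ligand, differed by 3.36 ± 0.49 in WT, 4.19 ± 0.57 in muMt-/- and 3.73 ± 0.51 in GABA-treated mice on the log2 scale. The level of Ccl2 in T cell libraries was 18.2%, 20.4% and 18.8% of that in macrophages in WT, muMt-/- and GABA-treated mice, and that of Ccl7 was 8.83%, 5.79% and 8.83%. In WT the T cell level of Ccl2 rests on replicate 5, which held 40 of the 50 molecules (773 CPM), while the other 5 libraries had 0 to 78.03 CPM with a mean of 39.6. The log2 difference in WT was not fitted without that library. The T cell molecules of Ccl7 were few, with 6 of 10 in WT replicate 5, all 5 in muMt-/- replicate 5 and 5 of 8 in GABA-treated replicate 2, and without these libraries its mean went from 28.0 to 10.4 CPM in WT, from 12.03 to 0 in muMt-/- and from 18.6 to 7.04 in GABA-treated mice. For the 22 macrophage markers the median of the same percentage was 3.13%, 14.4% and 14.9%.

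Ccl12, a mouse ligand of Ccr2, had 538 molecules in the 6 WT macrophage libraries and 0 in WT T cells, at least 32.1-fold higher with a floor of 3 molecules over the group. It had 221 molecules in macrophages and 4 in T cells of muMt-/- mice, and in GABA-treated mice 345 and 1. Ccl8, which in mice acts mainly through Ccr8, had 101 molecules in WT macrophages and 0 in T cells, at least 6.03-fold higher. Macrophage replicate 6 held 52 of the 101, and without it, a choice made after seeing the data, the bound was 3.53-fold. Ccl8 had 84 and 0 molecules in muMt-/- mice, at least 11.4-fold higher, and in GABA-treated mice 203 and 1. Of the members, Ccl12 and Ccl8 had the fewest molecules in T cell libraries, 5 and 1 over all 18.

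Ccl3, Ccl4 and Ccl5, which activated CD8+ T cells secrete, had the opposite distribution. Ccl3 averaged 147 CPM in WT macrophages and 2307 in WT T cells, a log2 difference of -3.63 ± 0.34 (SE, adjusted p = 4.91e-13, edgeR). The log2 difference of Ccl3 in muMt-/- mice was -3.95 ± 0.35 and in GABA-treated mice -4.42 ± 0.35. For Ccl4 it was -3.47 ± 0.39, -3.69 ± 0.40 and -3.95 ± 0.40 in WT, muMt-/- and GABA-treated mice. Ccl3 and Ccl4 were thus called in every group and lower in macrophages. Ccl5 was called in WT (-2.19 ± 0.38) and in GABA-treated mice (-2.47 ± 0.38) but not in muMt-/- mice, where its adjusted p was 0.281. Its macrophage level was 16.8% of its T cell level in WT, 54.9% in muMt-/- and 16.1% in GABA-treated mice, whereas the T cell markers' median was 0.371%, 0.207% and 0.293%.

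Ccl6 and Ccl9, mouse ligands of Ccr1 made by myeloid cells, were macrophage transcripts in WT mice. Ccl6 had 133 molecules in WT macrophages and 2 in WT T cells, a ratio of levels of 11.9 with a 95% counting interval of 3.23 to 99.3 (exact Clopper-Pearson), and it was called. In muMt-/- mice its log2 difference was 0.88 ± 0.50 and not called (adjusted p = 0.234), and in GABA-treated mice it was 2.21 ± 0.57 and called. Ccl9 differed by 2.01 ± 0.55 in WT, 0.92 ± 0.42 in muMt-/- (adjusted p = 0.113, not called) and 1.39 ± 0.44 in GABA-treated mice. In T cell libraries of muMt-/- mice Ccl6 reached 63.7% and Ccl9 61.9% of the macrophage level, beside 14.4% for the macrophage markers' median, whose range was 5.08% to 631%. Of the T cell molecules there, replicates 1 and 5 held 15 and 22 of 40 for Ccl6, and replicate 1 held 15 of 32 for Ccl9 (236 CPM). The mean level was 57.7 CPM for Ccl6 without replicate 5 and 52.4 for Ccl9 without replicate 1. The part of macrophage transcripts in these values was not tested.

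Ccl24, a ligand of Ccr3, was the scarcest member in macrophages. It had 13 molecules in WT macrophages and 1 in WT T cells, and was not called. Among muMt-/- libraries it had 49 and 1, a ratio of levels of 20.03 with a 95% counting interval of 3.43 to 807, and was called. In GABA-treated mice the 6 libraries held 77 and 34 molecules, with mean levels of 61.6 and 62.3 CPM, and the difference was not called. Of the 34 T cell molecules 28 were in replicate 1 (286 CPM), the GABA-treated library richest in macrophage markers, and the other 5 libraries had a mean of 17.7 CPM.

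Macrophages of muMt-/- and WT mice were compared to ask what the lack of B cells changes, and GABA-treated muMt-/- mice to ask what GABA changes in their absence. The 3 comparisons come from an edgeR fit of the 18 macrophage libraries with p-values adjusted over 9469 genes, and they share groups, so their values are given side by side. Between muMt-/- and WT 1 of 10 members was called, against 2.06% of all genes, and 6 had an unadjusted p under 0.05 (3 higher and 3 lower), against 14.8% of all genes. DESeq2 called 1 member there (2.67% of all genes), and 4 had an unadjusted p under 0.05 (11.7%). Between GABA-treated and control muMt-/- mice 0 members were called, against 0.0211% of all genes, with 1 at unadjusted p under 0.05 in edgeR (8.34% of all genes), 0 with DESeq2's adjusted p (60 genes, 0.634% of all) and 0 with its unadjusted p (6.13% of all genes). GABA-treated muMt-/- against WT gave 0 called members, against 0.0739% of all genes, with 5 at unadjusted p under 0.05 in edgeR (7.01% of all genes), 0 with DESeq2's adjusted p (14 genes, 0.148% of all) and 2 with its unadjusted p (4.65% of all genes). DESeq2 gave Ccl24 no adjusted p in that comparison, so it could not call this member there. The members' median log2 fold change was 0.07, 0.03 and -0.21 in these comparisons, and that of all genes tested was -0.05, 0.05 and 0.01. The family as a whole did not move in 1 direction. The number of genes called between muMt-/- and WT, 195, depended on single libraries, being 87 without WT replicate 1, 122 without WT replicate 6, 69 without muMt-/- replicate 4 and 330 without GABA-treated replicate 1. Between GABA-treated and control muMt-/- mice it was 2, and 39 without GABA-treated replicate 1, 12 without muMt-/- replicate 5, 6 without WT replicate 1, 5 without muMt-/- replicate 2 or GABA-treated replicate 2, and 2 to 3 in the other 13 fits. For GABA-treated muMt-/- against WT it was 7, and 2 to 9 with 1 library left out.

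Ccl24 was the called member. Its normalized number in macrophages was 0 to 5.02 with a median of 0.821 in WT, 3.69 to 20.7 with a median of 10.97 in muMt-/-, and 0 to 27.9 with a median of 6.28 in GABA-treated muMt-/- mice. The 6 muMt-/- libraries all held Ccl24, and 4 of them were above every WT library, while WT replicate 5 overlapped the lower muMt-/- libraries. Ccl24 rose by 2.49 ± 0.67 on the log2 scale from WT to muMt-/- (SE, adjusted p = 0.0357, edgeR). GABA-treated libraries spread over the whole range, with replicates 1 and 2 above every muMt-/- library and replicate 5 at 0. Against WT their log2 fold change was 2.76 ± 0.62, which missed the threshold (adjusted p = 0.0754). The fold change between GABA-treated and control muMt-/- mice was not called.

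These Ccl24 values rest on 13, 49 and 77 molecules in the 6 libraries of each group. The call between muMt-/- and WT was lost when any 1 of WT replicates 1, 2, 3, 4 and 6 or muMt-/- replicates 1, 4, 5 and 6 was left out, with adjusted p-values from 0.0144 to 0.0975 and log2 fold changes from 2.23 to 3.44 over the 18 fits. It was also lost in a robust fit (adjusted p = 0.212) and with library depth as a covariate (adjusted p = 0.263, log2 fold change 2.37), and Ccl24 was not tested under edgeR's filterByExpr. Over all alternative settings, those named included and single libraries left out excepted, its adjusted p ran from 4.03e-06 to 0.263. The comparison of GABA-treated with WT macrophages gained the call without WT replicate 5 (adjusted p = 0.0242), GABA-treated replicate 4 (0.0309) or GABA-treated replicate 5 (0.0124), and over the alternative settings its adjusted p ran from 4.56e-09 (no filter) to 0.474. Transcripts on a list of mast cell and eosinophil markers were at or near 0 in macrophage libraries. Ccl24 attracts eosinophils, but these libraries hold sorted macrophages and cannot show whether eosinophils were in the tumours. The 8 mast cell and eosinophil markers had a summed level of 0 to 22.2 CPM in macrophage libraries, with Kit the most abundant and 2, 1 and 2 of 8 detected in WT, muMt-/- and GABA-treated mice.

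Ccl2 is the highest of the Ccr2 ligands in macrophages. Its normalized number was 92.2 to 221 with a median of 179 in WT, 90.4 to 146 with a median of 110 in muMt-/-, and 66.0 to 200 with a median of 120 in GABA-treated mice. In WT, 4 libraries stood above every muMt-/- library and replicates 5 and 6 lay among them, so the groups overlapped. The log2 fold change from WT to muMt-/- was -0.54 ± 0.21 (SE, adjusted p = 0.189, edgeR), which missed the threshold. It was called with no filter (adjusted p = 0.0311), the lowest value over the alternative settings, of which the highest was 0.609. From WT to GABA-treated muMt-/- it was -0.43 ± 0.21 (adjusted p = 0.707).

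Ccl7 lies next to Ccl2 in the genome and also binds Ccr2. Its normalized number was 29.1 to 81.4 with a median of 61.2 in WT, 26.5 to 49.3 with a median of 42.5 in muMt-/-, and 23.9 to 56.8 with a median of 37.7 in GABA-treated mice. All WT libraries except replicate 6 were above every muMt-/- library. The log2 fold change was -0.56 ± 0.21 in muMt-/- (adjusted p = 0.175, edgeR) and -0.57 ± 0.21 in GABA-treated muMt-/- mice (adjusted p = 0.515), both against WT and neither called.

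Ccl12, the remaining Ccr2 ligand, had a normalized number of 55.2 to 93.2 with a median of 62.1 in WT, 13.9 to 59.7 with a median of 51.3 in muMt-/-, and 22.6 to 88.8 with a median of 52.2 in GABA-treated mice. Of the muMt-/- libraries 4 of 6 lay below every WT library, with replicate 4 the lowest. The same held for 4 of 6 GABA-treated libraries, and the other 2 lay within the WT range. From WT to muMt-/- its log2 fold change was -0.66 ± 0.25 (adjusted p = 0.180, edgeR) and was not called. With no filter it was called (adjusted p = 0.0125), and this and 0.513 were the lowest and highest value over the alternative settings. For Ccl2, Ccl7 and Ccl12 together, the 3 fold changes from WT to muMt-/- were negative and none passed the threshold in the planned fit.

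The normalized number of Ccl8, which acts mainly through Ccr8, ran from 0.789 to 37.8 with a median of 6.93 in WT, from 0 to 30.7 with a median of 19.2 in muMt-/-, and from 1.02 to 82.3 with a median of 18.7 in GABA-treated mice. Each group held a library near 0, namely WT replicate 3, muMt-/- replicate 3 and GABA-treated replicate 3, and the ranges overlapped. Only the comparison of GABA-treated muMt-/- with WT had an unadjusted p under 0.05, at a log2 fold change of 1.25 ± 0.51 (adjusted p = 0.586, edgeR). With no filter it was called, at the lowest adjusted p over the alternative settings (2.08e-05), and the highest was 0.809. The fold change was 0.60 without GABA-treated replicate 6 and 2.0003 without WT replicate 6, the libraries with the most Ccl8 in their groups.

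Ccl5, a ligand of Ccr1, had a normalized number of 19.6 to 63.9 with a median of 52.3 in WT macrophages, 47.1 to 117 with a median of 92.9 in muMt-/-, and 6.64 to 108 with a median of 46.8 in GABA-treated mice. In muMt-/- mice 4 of 6 libraries were above every WT library, and 4 of 6 GABA-treated libraries were below every muMt-/- library. The log2 fold change was 0.82 ± 0.30 from WT to muMt-/- (adjusted p = 0.153, edgeR) and -0.63 ± 0.30 from muMt-/- to GABA-treated muMt-/- mice (adjusted p = 0.587). Neither was called. The first of them was called when no filter was used (adjusted p = 0.00148), in a fit of only the 12 libraries compared (0.0322), with replicate number as a block (0.0498) and without GABA-treated replicate 1 (0.0453). The highest adjusted p over the alternative settings was 0.393.

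Ccl3 and Ccl4 showed no difference at an unadjusted p under 0.05 in macrophages. The normalized number of Ccl3 had medians of 23.7, 20.6 and 18.8 in WT, muMt-/- and GABA-treated mice, within a range of 4.03 to 51.2 over the 18 libraries. Medians for Ccl4 were 46.9, 40.2 and 34.6 within a range of 18.1 to 106. Group ranges overlapped for both genes.

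Ccl6, a Ccr1 ligand, had a normalized number of 6.82 to 25.3 with a median of 16.8 in WT macrophages, 15.1 to 51.3 with a median of 29.2 in muMt-/-, and 11.2 to 76.5 with a median of 17.7 in GABA-treated mice. In muMt-/- mice 4 of 6 libraries were above every WT library, and in GABA-treated mice replicates 2 and 6 were. The log2 fold change against WT was 0.83 ± 0.35 in muMt-/- (adjusted p = 0.235, edgeR) and 0.90 ± 0.33 in GABA-treated mice (adjusted p = 0.515), and neither was called. Both were called with no filter (adjusted p = 0.0152 and 0.00929), which were the lowest values over the alternative settings, and the highest were 0.455 and 0.738. Without GABA-treated replicate 6 the latter fold change was 0.40. Ccl9, its neighbour in the genome and also a Ccr1 ligand, had medians of 23.0, 24.5 and 20.2 with overlapping ranges and no unadjusted p under 0.05.

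Other transcripts of these macrophage libraries were summed by list, without a test of the groups, and the most abundant gene of a list is that over all 18 libraries of the cell type. The 8 monocyte markers had a median summed level of 1176 CPM in WT, 1860.1 in muMt-/- and 1777 in GABA-treated mice, with 8, 7 and 8 of them detected and Plac8 the most abundant, and their ranges overlapped (1043 to 1792, 927 to 2462 and 994 to 2169 CPM). The 10 dissociation and stress genes had medians of 4251, 5109 and 4406 CPM with all 10 detected and Fos the most abundant. Malat1 and Neat1, which stay in the nucleus, summed to medians of 3619, 5726 and 3809 CPM, with ranges of 3129 to 3844 in WT and 4578 to 10392 in muMt-/- that did not overlap. The part of these transcripts in the chemokines' values was not tested. The 8 fibroblast and endothelial markers had medians of 412, 476 and 630.3 CPM with Col3a1 the most abundant and 8, 8 and 7 detected, and were highest in WT replicate 6, at 0.533% of molecules. With that library, muMt-/- replicate 3 and GABA-treated replicate 2 left out together, a choice made after seeing the data, Ccl24 was again called between muMt-/- and WT (adjusted p = 0.0344). The 8 B cell markers summed to at most 20.6 CPM in any macrophage library, with Cd79b the most abundant and 3, 2 and 3 of 8 detected, and the 8 NK cell markers to at most 39.9, with Klra4 the most abundant and 4 of 8 detected in each group. The 8 neutrophil markers had medians of 47.4, 130.1 and 93.9 CPM with Csf3r the most abundant, and 7, 7 and 6 detected. The 8 dendritic cell markers had medians of 172, 161 and 214 CPM with Itgax, which macrophages also express, the most abundant and 5, 6 and 7 detected, and of the 6 tumour cell markers 2, 1 and 2 were detected, with medians of 46.7, 80.1 and 57.5 CPM, nearly all from Cdh1. The tumour cell markers' ranges of 35.6 to 51.1 CPM in WT and 58.3 to 164.8 in muMt-/- did not overlap. Their part in the chemokines' values was not tested.

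**Figure D1:**
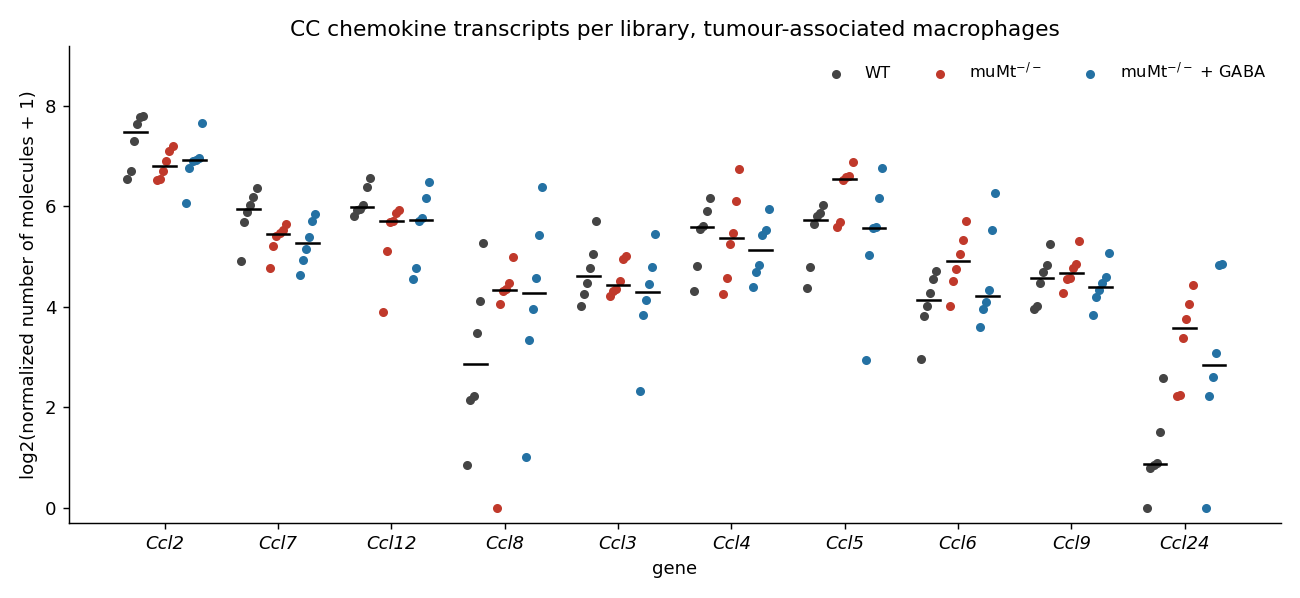
Log2 of the normalized number of molecules plus 1 (vertical axis) of each CC chemokine gene (horizontal axis) in macrophages, with 1 point per library, 6 libraries per group and a black line at the group's median. Ccl24 is low in 5 of 6 WT libraries, with WT replicate 5 at a normalized number of 5.02, and above 0 in all 6 muMt-/- libraries, and the groups of every gene overlap.

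In CD8+ T cells the same 3 comparisons were fitted in edgeR over 18 libraries and 6663 genes. Of the 10 members 8 passed the filter, and Ccl8 and Ccl12 did not. Between muMt-/- and WT 0 of 8 members were called, against 0% of all genes, with 2 at unadjusted p under 0.05 in edgeR, 0 with DESeq2's adjusted p and 1 with its unadjusted p. Between GABA-treated and control muMt-/- mice 0 were called, against 0% of all genes, with 2 at unadjusted p under 0.05 in edgeR, 0 with DESeq2's adjusted p and 1 with its unadjusted p. GABA-treated muMt-/- against WT gave 0 called members, against 0% of all genes, with 1 at unadjusted p under 0.05 in edgeR and 0 with DESeq2's adjusted or unadjusted p. That member is Ccl24, which is also among the 2 between GABA-treated and control muMt-/- mice in edgeR. Its mean normalized number was 0.369 in WT, 0.136 in muMt-/- and 3.82 in GABA-treated mice. It passed the filter, a mean over 1, only through the group where it is high, so its p-values are not read as a difference. Ccl6 is among the 2 between muMt-/- and WT in edgeR and is the 1 with DESeq2's unadjusted p. It passed the filter through the 2 muMt-/- groups, where it is high, so its p-values are not read as a difference either. DESeq2's adjusted p called 0, 0 and 1 of all genes in the 3 comparisons. At an unadjusted p under 0.05 the share of all genes was 6.08%, 3.69% and 6.41% in edgeR, and with DESeq2 there were 222, 133 and 222 of the 6663 genes. The members' median log2 fold change was -0.16, 0.15 and 0.35, and that of all genes 0.15, 0.00 and 0.17. The number of all genes called between muMt-/- and WT was 11 without WT replicate 5.

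Ccl5 was the abundant member that differed most between groups of CD8+ T cells. Its normalized number was 52.6 to 118 with a median of 83.8 in WT, 7.08 to 76.6 with a median of 44.2 in muMt-/-, and 26.7 to 152 with a median of 94.3 in GABA-treated mice. Of the muMt-/- libraries 3 of 6 were below every WT library, and in GABA-treated mice all but replicate 1 were above every muMt-/- library. The log2 fold change was -0.78 ± 0.37 from WT to muMt-/- (adjusted p = 0.775, edgeR) and 1.18 ± 0.36 from muMt-/- to GABA-treated muMt-/- mice (adjusted p = 0.9997), and neither was called. The latter was called with replicate number as a block (adjusted p = 0.0243) and with no filter (4.03e-05), the latter being the lowest value over the alternative settings, of which the highest was 0.9999. Of the muMt-/- libraries, replicates 1, 5 and 3 had the lowest Ccl5, at 7.08, 17.99 and 25.2, and the highest sums of the 22 macrophage markers, at 8643, 3941 and 2454 CPM. The part of macrophage transcripts in the Ccl5 values was not tested. With the library of each group richest in those markers left out, a choice made after seeing the data, the fold change was -0.71 from WT to muMt-/- and 1.17 from muMt-/- to GABA-treated mice (adjusted p = 0.0792).

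Ccl3 and Ccl4 were abundant in every group of T cells. The normalized number of Ccl3 ran from 28.3 to 227 over the 18 libraries with medians of 113, 115 and 142 in WT, muMt-/- and GABA-treated mice. That of Ccl4 ran from 47.5 to 385 with medians of 218, 171 and 174. Group ranges overlapped, and no comparison of either gene had an unadjusted p under 0.05. The lowest library of both was muMt-/- replicate 1, which was also richest in macrophage markers. Among the other lists in T cells, the 8 NK cell markers had medians of 877, 983 and 503 CPM with Klrc1 the most abundant and 5, 5 and 6 detected, and the 8 neutrophil markers 0, 60.8 and 91.2 CPM with S100a8 the most abundant over the 18 libraries and 4, 6 and 6 detected.

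Further lists in T cells also differed in median between the groups, without a test. The 8 fibroblast and endothelial markers had medians of 202, 655.4 and 216 CPM in WT, muMt-/- and GABA-treated mice, with Col3a1 the most abundant and 6, 7 and 7 detected, and overlapping ranges of 93.2 to 754, 15.4 to 1426 and 42.5 to 662 CPM. The 8 monocyte markers had medians of 1393 CPM in WT, 2015 in muMt-/- and 1932 in GABA-treated mice, with Ly6c2 the most abundant and 6, 7 and 8 detected. For the 10 dissociation and stress genes the medians were 2219, 2594 and 2245 CPM with Junb the most abundant, and for Malat1 and Neat1 4121, 3195 and 2954 CPM. The part of these transcripts in the Ccl5 values was not tested.

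The myeloid members were scarce in T cells. Ccl6 had 2 molecules in WT, 40 in muMt-/- and 19 in GABA-treated mice. In muMt-/- mice replicates 1 and 5 held 15 and 22 of the 40 molecules, at normalized numbers of 15.2 and 17.99, and the other 4 libraries held at most 2.24. Between muMt-/- and WT the ratio of levels was 13.02 with a 95% counting interval of 3.38 to 111, and it was not called (adjusted p = 0.377, edgeR). It was called with no filter (adjusted p = 0.000491), and the highest value over the alternative settings was 0.9997. The mean normalized number of Ccl6 was 0.250 in WT, 6.02 in muMt-/- and 2.31 in GABA-treated mice. Ccl6 passed the filter, a mean over 1, through the groups where it is high, so its p-values are not read as a difference. Without replicate 5, a choice made after seeing the data, the ratio was 7.07 with an interval of 1.69 to 62.9. Those 2 libraries had the highest and the next highest sum of macrophage markers among muMt-/- T cell libraries, and their part in the value was not tested. Ccl9 had medians of 2.27, 3.08 and 1.09, Ccl2 of 2.94, 4.70 and 4.28 and Ccl7 of 0, 0 and 0.628, and none of them had an unadjusted p under 0.05.

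Ccl24 had 1, 1 and 34 molecules in T cells of WT, muMt-/- and GABA-treated mice. In GABA-treated mice 3 libraries held it, and replicate 1, with a normalized number of 17.8, stood far above the others, of which the next held 2.74. Against muMt-/- the ratio of levels was 28.1 with a 95% counting interval of 4.72 to 1143 and was not called (adjusted p = 0.9997, edgeR). Against WT the ratio was 18.3 with an interval of 3.07 to 744 (adjusted p = 0.573). Both were called with no filter (adjusted p = 0.00212 and 0.00960). Without replicate 1, a choice made after seeing the data, the ratios were 6.21 (0.753 to 286) and 4.04 (0.490 to 186), and both intervals include 1. That replicate was the GABA-treated library richest in macrophage markers, at 4805 CPM. The counting intervals cover counting error only, not the spread between mice.

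**Figure D2:**
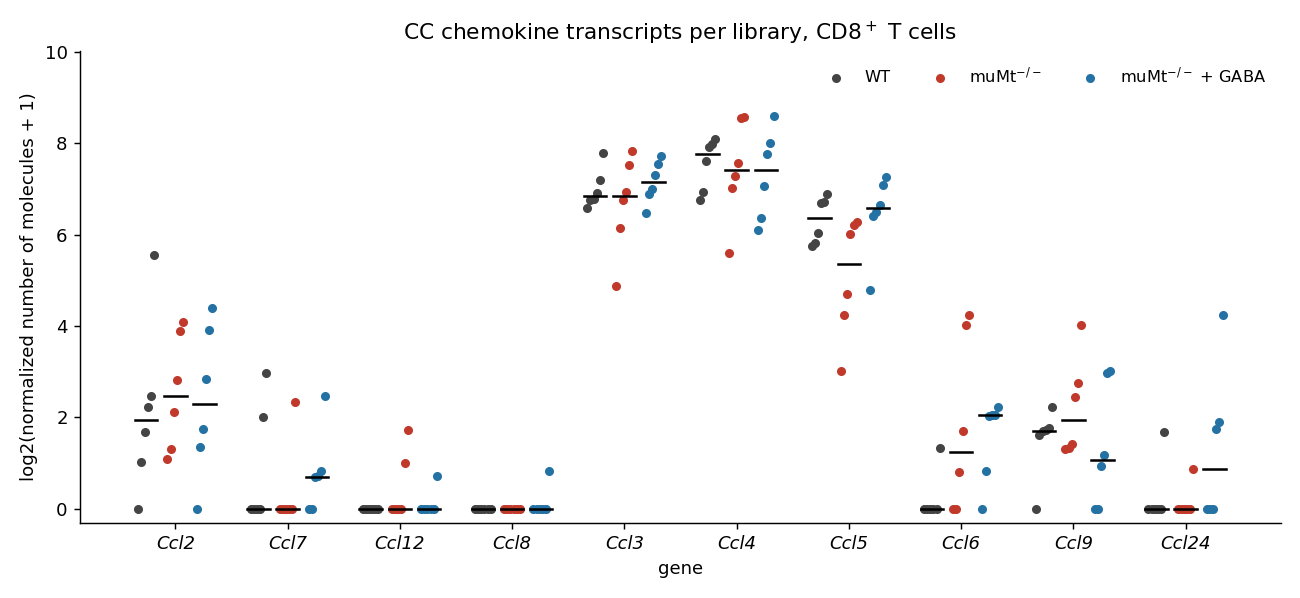
Log2 of the normalized number of molecules plus 1 (vertical axis) of each CC chemokine gene (horizontal axis) in CD8+ T cells, with 1 point per library, 6 libraries per group and a black line at the group's median. Ccl3, Ccl4 and Ccl5 are high in every group, Ccl12 and Ccl8 are at or near 0, and the median of Ccl5 is 44.2 in muMt-/- against 83.8 in WT.

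Whether a difference between groups itself differed between macrophages and T cells was tested in the fit of 36 libraries. For muMt-/- against WT 0 of 10 members were called, against 0.0118% of all genes, and for GABA-treated against control muMt-/- mice 0 of 10, against 0% of all genes. In each of these tests 2 members had an unadjusted p under 0.05 in edgeR, as had 850 and 383 of the 8477 genes, and 0 were called with DESeq2's adjusted p, which called 9 and 0 of all genes. Ccl5 was among them in both. Its log2 fold change from WT to muMt-/- was higher in macrophages than in T cells by 1.58 ± 0.53 (SE, adjusted p = 0.283, edgeR). From muMt-/- to GABA-treated mice the macrophage fold change of Ccl5 was lower, with a difference of -1.86 ± 0.53 (adjusted p = 0.641). So Ccl5 had fold changes of opposite sign in the 2 cell types in both comparisons, which share the muMt-/- libraries, and no test of the opposition passed the threshold over all genes.

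The members were compared with each other over the 18 macrophage libraries, on log2 of the normalized number plus 1. Of 45 pairs, 27 had a positive Pearson r and 3 had an adjusted p under 0.05 in a permutation test, with p-values adjusted over the 45 pairs. On molecules per library total 7 pairs passed. Ccl2 and Ccl7 varied together with r = 0.75 (p = 0.000435, adjusted p = 0.00979, permutation) and Spearman's rho = 0.69 (p = 0.00217, permutation). Within groups, on deviations from the group means, r was 0.68 (adjusted p = 0.0633, permutation), and without the 2 libraries farthest from the median it was 0.61. Ccl7 and Ccl12 had r = 0.75 (p = 0.000275, adjusted p = 0.00979, permutation), rho = 0.70 (p = 0.00146, permutation), r = 0.69 within groups (adjusted p = 0.0245) and 0.67 without the 2 libraries. The remaining pair of Ccr2 ligands, Ccl2 and Ccl12, missed the threshold by r = 0.58 (p = 0.0112, adjusted p = 0.0717, permutation) and passed it by rank with rho = 0.63 (p = 0.00617, adjusted p = 0.0463, permutation), with r = 0.47 within groups (adjusted p = 0.222) and 0.46 without the 2 libraries. Ccl3 and Ccl4 had r = 0.64 (p = 0.00267, adjusted p = 0.0401, permutation), rho = 0.70 (p = 0.00169, permutation), r = 0.63 within groups (adjusted p = 0.0245) and 0.65 without the 2 libraries. Ccl6 and Ccl9 missed the threshold over all libraries with r = 0.64 (p = 0.00469, adjusted p = 0.0528, permutation) and rho = 0.61 (p = 0.00902, permutation), and passed it within groups with r = 0.68 (adjusted p = 0.0424), and without the 2 libraries r was 0.51. Ccl8 did not follow its neighbour Ccl12, with r = -0.07 (p = 0.779, permutation) and rho = -0.13 (p = 0.604, permutation).

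Ccl24 had negative values with the Ccr2 ligands over the same libraries. With Ccl12 it had r = -0.56 (p = 0.0132, adjusted p = 0.0741, permutation), passed the threshold by rank with rho = -0.76 (p = 0.000445, adjusted p = 0.0200, permutation), and had r = -0.39 within groups (adjusted p = 0.502) and -0.46 without the 2 libraries. With Ccl2 it missed by both, at r = -0.61 (p = 0.00754, adjusted p = 0.0614, permutation) and rho = -0.58 (p = 0.0120, adjusted p = 0.0663, permutation), with r = -0.47 within groups (adjusted p = 0.303) and -0.52 without the 2 libraries. These 4 genes also had values with library depth, log2 of its molecules, none with an adjusted p under 0.05 over the 10 members. They were r = -0.43 for Ccl24 (p = 0.0735, adjusted p = 0.379, permutation; rho = -0.31, -0.09 within groups, -0.46 without the 2 libraries) and r = 0.33 for Ccl2 (p = 0.184, permutation; rho = 0.33, 0.11 within groups, 0.28 without the 2 libraries). For Ccl7 it was r = 0.34 (p = 0.166, permutation; rho = 0.30, 0.12 within groups, 0.21 without the 2 libraries) and for Ccl12 r = 0.30 (p = 0.224, permutation; rho = 0.23, 0.03 within groups, 0.05 without the 2 libraries).

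Ccl3 and Ccl5 had the within-group value farthest from 0 of all pairs, r = -0.74 (adjusted p = 0.0916, permutation), which missed the threshold. Over all libraries they had r = -0.57 (p = 0.0226, adjusted p = 0.0926, permutation), rho = -0.48 (p = 0.0456, permutation) and r = -0.49 without the 2 libraries. Ccl5 and Ccl6 missed by r = 0.56 (p = 0.0154, adjusted p = 0.0768, permutation) and passed by rank with rho = 0.64 (p = 0.00507, adjusted p = 0.0457, permutation), with r = 0.53 within groups (adjusted p = 0.303) and 0.50 without the 2 libraries.

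In the 18 T cell libraries the 4 members Ccl2, Ccl3, Ccl4 and Ccl5 were compared in the same way, which had not been planned, with p-values adjusted over 6 pairs, of which 5 passed. Ccl3 and Ccl4 had r = 0.76 (p = 0.000205, adjusted p = 0.00123, permutation), rho = 0.70 (p = 0.00168, permutation), r = 0.81 within groups (adjusted p = 0.00168) and 0.59 without the 2 libraries. Ccl2 and Ccl4 had r = -0.55 (p = 0.0184, adjusted p = 0.0328, permutation), rho = -0.60 (p = 0.00954, permutation), r = -0.55 within groups (adjusted p = 0.0273) and -0.49 without the 2 libraries. For Ccl2 and Ccl5 it was r = -0.49 (p = 0.0373, adjusted p = 0.0448, permutation), rho = -0.49 (p = 0.04155, adjusted p = 0.0831, permutation), r = -0.55 within groups (adjusted p = 0.0256) and -0.67 without the 2 libraries. Ccl5 passed with Ccl3 and with Ccl4 by r and not by rank, with r = 0.63 (p = 0.00839, adjusted p = 0.0252, permutation) and rho = 0.41 (p = 0.0908, permutation) for Ccl3, and r = 0.53 (p = 0.02185, adjusted p = 0.0328, permutation) and rho = 0.35 (p = 0.158, permutation) for Ccl4. Within groups these were 0.60 (adjusted p = 0.050003) and 0.66 (adjusted p = 0.0256), and without the 2 libraries 0.28 and 0.11. The part of macrophage transcripts in these values was not tested.

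The genes whose macrophage pattern was most like a member's were named by Pearson r over 18 libraries among 3150 genes, as a description. Ccl2 and Ccl7 shared the chemokine gene Cxcl10 as nearest gene, with r = 0.82 and 0.83, and Ywhah next, with r = 0.77 and 0.82. The genes nearest to Ccl12 were Pnp (0.90), Csk (0.86) and Ctsa (0.86). Ccl5 had 3 genes of the MHC class II pathway as its nearest, Cd74 (0.88), H2-Eb1 (0.87) and H2-Ab1 (0.85). For Ccl3 they were Cebpz (0.82), Otud4 (0.76) and Ssr1 (0.70), and for Ccl4 Vps29 (0.69), Dbi (0.68) and Atf6 (0.65). The lists of Ccl6 (Atp6v1e1, Wfdc17 and Sav1, 0.74 to 0.72), Ccl8 (Mdfic, Mvp and Lgmn, 0.64 to 0.63) and Ccl9 (Tm9sf3, Spi1 and Nckap1l, 0.74 to 0.69) held no other chemokine. In T cells, among 822 genes, the nearest gene of Ccl3 was Ccl4 (0.76) and those of Ccl4 were Lime1 (0.82), Cd8a (0.81) and Sh2d2a (0.78), while those of Ccl5 were Nop53 (0.85), Rpl36 (0.82) and Rps23 (0.81).

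Among 14 other CC chemokine genes, 5 were detected in each cell type and 1 passed the filter in each. Ccl17, a ligand of Ccr4, had 1 molecule in WT, 40 in muMt-/- and 12 in GABA-treated macrophages, and 4 of 6 muMt-/- libraries held it against 1 WT library. Between muMt-/- and WT the ratio of levels was 59.5 with a 95% counting interval of 10.1 to 2407, and it was called (adjusted p = 0.00662, edgeR). The mean normalized number of Ccl17 was 0.154 in WT, 8.11 in muMt-/- and 2.29 in GABA-treated macrophages. Ccl17 passed the filter, a mean over 1, through the groups where it is high, so its p-values are not read as a difference. Replicate 4 held 25 of the 40 molecules, at a normalized number of 34.9 against a group median of 4.17, and without it, a choice made after seeing the data, the ratio was 26.2 with an interval of 4.02 to 1101. That call was lost without muMt-/- replicate 4 (adjusted p = 0.0865), in a robust fit (0.0853) and with depth as a covariate (0.156), and DESeq2 gave it no adjusted p, while the lowest value over the alternative settings was 3.97e-09. Ccl1, a ligand of Ccr8, was a T cell transcript with 50, 87 and 68 molecules in WT, muMt-/- and GABA-treated mice and 0 in macrophages, at least 93.1-fold, 70.9-fold and 56.1-fold higher with a floor of 3 molecules over the macrophage libraries of the group, or 92.1-fold, 49.4-fold and 43.4-fold without the richest library of each group.

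Of 15 CC chemokine receptor genes, 5 passed the filter in macrophages. Between muMt-/- and WT 1 of the 5 was called, against 2.06% of all genes, and 4 had an unadjusted p under 0.05, all higher in muMt-/-, while 0 were called in edgeR in the other 2 comparisons, with 3 and 2 at unadjusted p under 0.05. The share of all genes at unadjusted p was 14.8%, 8.34% and 7.01% in the 3 comparisons. Ccr7 is among the 4 in muMt-/- and among the 2 in GABA-treated muMt-/- mice, both against WT. Its mean normalized number was 0.121 in WT, 2.78 in muMt-/- and 1.66 in GABA-treated mice. It passed the filter, a mean over 1, through the groups where it is high, so its p-values are not read as a difference. Of its 16 muMt-/- molecules 13 were in replicate 3, and of its 10 GABA-treated molecules 8 were in replicate 3 of that group. Ccr2, the receptor of Ccl2, Ccl7 and Ccl12, had a normalized number of 123 to 188 with a median of 156 in WT, 168 to 477 with a median of 268 in muMt-/-, and 116 to 304 with a median of 161 in GABA-treated mice. It rose by 0.84 ± 0.19 on the log2 scale from WT to muMt-/- (SE, adjusted p = 0.0106, edgeR). Its 3 ligands had negative fold changes there, none of them called in that fit. The monocyte markers' median was 1176 CPM in WT and 1860 in muMt-/- macrophages, with overlapping ranges. Malat1 and Neat1 summed to 3129 to 3844 CPM in WT and 4578 to 10392 in muMt-/-. The part of these transcripts in the macrophage receptor values was not tested. The call on Ccr2 was lost without muMt-/- replicate 4 (adjusted p = 0.0678), with depth as a covariate (0.582, log2 fold change 0.41) and without the 3 libraries rich in fibroblast markers (0.0542), and the lowest adjusted p over the alternative settings was 0.000193. From muMt-/- to GABA-treated mice its log2 fold change was -0.63 ± 0.19 (adjusted p = 0.250, edgeR), which DESeq2 called (adjusted p = 0.0405), as did edgeR without GABA-treated replicate 1 (0.0198) and with no filter (0.0423), and the highest value over the alternative settings was 0.651. Ccr1, the receptor of Ccl6 and Ccl9, had 65.7 to 89.1 with a median of 78.1 in WT and 103 to 129 with a median of 114 in muMt-/-, ranges that did not overlap, and 70.4 to 126 in GABA-treated mice. Its log2 fold change from WT to muMt-/- was 0.54 ± 0.15 and missed the threshold (adjusted p = 0.0501, edgeR), and passed it with DESeq2 (0.00619), with DESeq2's size factors in edgeR (0.0338), with filterByExpr (0.0142), in a fit of only the 12 libraries compared (0.0169), in a robust fit (0.0342) and without WT replicate 5 (0.0462), GABA-treated replicate 1 (0.0164) or GABA-treated replicate 4 (0.0430), and the highest value over the alternative settings was 0.274. Ccr3, the receptor of Ccl24, had 1 molecule in all 18 macrophage libraries and 2 in all T cell libraries.

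In CD8+ T cells 5 receptor genes passed the filter and 0 were called in edgeR in any of the 3 comparisons, with 3, 0 and 2 at unadjusted p under 0.05 in edgeR, all higher in the first-named group, against 6.08%, 3.69% and 6.41% of all genes. Ccr7 had the highest median normalized number of the receptors there, at 14.6 in WT, 13.5 in muMt-/- and 13.5 in GABA-treated mice, and it was called lower in macrophages in every group. Ccr1 and Ccr2 were higher in macrophages and called in every group. In muMt-/- T cells replicate 1, the library richest in macrophage markers, held 34 of the 58 Ccr1 molecules and 52 of the 102 Ccr2 molecules, and the part of macrophage transcripts in the receptor values was not tested.

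Of the 10 members, 9 lie on chromosome 11 and Ccl24 lies on chromosome 5 (chr5:135569935-135573123, minus strand, RefSeq positions on GRCm38.p6). Ccl2 (chr11:82035577-82037452), Ccl7 (chr11:82045712-82047525), Ccl12 (chr11:82101845-82103399) and Ccl8 (chr11:82115185-82116799) follow each other on the plus strand. Ccl5 (chr11:83525778-83530518), Ccl9 (chr11:83572917-83578636), Ccl6 (chr11:83587886-83593087) and Ccl3 (chr11:83647843-83649378) lie on the minus strand 1408979 bases beyond Ccl8. Ccl4 (chr11:83648624-83664683, plus strand) has a RefSeq span that covers the start of Ccl3, and how reads that fit several genes were counted is not stated. The step from the last position of one gene to the first of the next is 8260 bases from Ccl2 to Ccl7 and 54320 from Ccl7 to Ccl12. It is 9250 from Ccl9 to Ccl6 and 11786 from Ccl12 to Ccl8. Whether distance goes with correlation was not tested.

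RefSeq promoter sequences were available for 5 of the 10 members. The 250 bases before the start are shown for Ccl12 and Ccl8, neighbours that did not vary together, and for Ccl9 and Ccl6, neighbours that varied together within groups. Capitals mark the letters TATAAA, and positions are on GRCm38.p6.
Ccl12, chr11:82101595-82101844, plus strand: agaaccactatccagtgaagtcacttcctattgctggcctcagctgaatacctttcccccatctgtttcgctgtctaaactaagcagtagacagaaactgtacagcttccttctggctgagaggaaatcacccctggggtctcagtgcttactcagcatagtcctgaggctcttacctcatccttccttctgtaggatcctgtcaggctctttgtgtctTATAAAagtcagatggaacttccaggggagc
Ccl8, chr11:82114935-82115184, plus strand: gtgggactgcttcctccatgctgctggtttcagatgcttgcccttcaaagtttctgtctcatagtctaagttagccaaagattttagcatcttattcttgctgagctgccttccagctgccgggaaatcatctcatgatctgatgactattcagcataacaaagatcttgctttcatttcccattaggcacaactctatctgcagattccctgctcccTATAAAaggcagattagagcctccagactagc
Ccl9, chr11:83578637-83578886, minus strand: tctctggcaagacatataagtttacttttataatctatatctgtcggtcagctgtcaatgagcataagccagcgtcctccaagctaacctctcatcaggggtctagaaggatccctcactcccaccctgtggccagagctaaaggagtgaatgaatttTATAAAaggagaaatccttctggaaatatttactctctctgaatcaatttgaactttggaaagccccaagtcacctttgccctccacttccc
Ccl6, chr11:83593088-83593337, minus strand: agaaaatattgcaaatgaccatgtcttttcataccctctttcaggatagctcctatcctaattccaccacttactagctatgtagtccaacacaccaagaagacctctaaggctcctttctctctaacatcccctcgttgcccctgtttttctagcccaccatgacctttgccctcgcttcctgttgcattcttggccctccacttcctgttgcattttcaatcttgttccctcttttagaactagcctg
The letters TATAAA on the given strand were in Ccl12, Ccl8 and Ccl9 and in 7.59% of 32851 promoters of the same length. The STAT motif TTCNNNGAA on both strands was in none of the 5 members and in 7.02% of promoters, and the C/EBP motif TTGCNNAA on both strands was in none of the 5 and in 9.56%. These are not all the motifs searched, as a 10-letter NF-kB motif, which had a match in Ccl9, and a STAT motif with a longer spacer, which had none in the 5, were left out for their length. The NF-kB match is not marked in the sequence. How many of all promoters hold that motif is not given, so the match cannot be set beside a share. In a pairwise alignment 65.2% of 230 aligned bases were identical between Ccl12 and Ccl8, and 63.1% of 214 between Ccl9 and Ccl6, within the range of 56.3% to 66.7% over all 10 pairs of the 5 members. A match describes letters in this window and no match says only that these letters are not in it.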

How the data were processed

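RNA of 100 sorted cells per library was sequenced with molecular barcodes, and the authors aligned reads to mm10 with STAR and deposited counts of molecules per gene for 36 libraries. Of 24781 genes, 9188 had no molecule. Labels mention spike-in RNA, and the deposited table holds none. Differences were tested with the quasi-likelihood test of edgeR 4.0.16 (R 4.3.3), with TMM normalization, 1 coefficient per group, genes with a mean normalized number over 1, Benjamini-Hochberg adjustment over all genes tested and a threshold of 0.05, in a fit of 18 libraries per cell type or of all 36. DESeq2 1.42.0 was run beside it and gave the size factors of the normalized numbers. Correlations used 100000 permutations. The code was tested on simulated data. Exon lengths, positions and promoters came from RefSeq. The members and the lists (macrophage, T cell, NK cell, B cell, dendritic cell, neutrophil, monocyte, mast cell and eosinophil, fibroblast and endothelial, tumour cell and stress genes, nuclear RNA, other CC chemokines, receptors) were chosen with earlier results of these data known.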

Additional observations from a re-analysis of the deposited data

Results flagged for a closer look

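Of 54 groups of 6 libraries looked at for a library far from the others, 9 held 1 whose gap to the next was a large part of the group's range by Dixon's test, which for 4 of them means that the other 5 libraries held no molecule. All values are normalized numbers, and why they differ was not tested. In macrophages Ccl24 was 5.02 in WT replicate 5, with the next WT library at 1.85. In CD8+ T cells Ccl2 was 45.7 in WT replicate 5, with the next at 4.51, and that library had the most macrophage marker molecules of its group, at 2899 CPM. Ccl6 was 1.502 in WT replicate 6 with the other 5 libraries at 0. Ccl7 was 4.09 in muMt-/- replicate 5 with the others at 0, and 4.57 in GABA-treated replicate 2 with the next at 0.781. Ccl9 was 15.2 in muMt-/- replicate 1 with the next at 5.72, and that library had the most macrophage marker molecules of its group. Ccl24 was 2.21 in WT replicate 3 and 0.818 in muMt-/- replicate 5, each with the others at 0, and 17.8 in GABA-treated replicate 1 with the next at 2.74.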

How the results depend on the processing

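No fold change followed here turned its direction, whereas members with small fold changes did: between muMt-/- and WT macrophages 6 members were higher and 4 lower, and 4 and 6 without WT replicate 5 or without muMt-/- replicate 6. Of 516 fold changes under other settings 472 kept their side of the threshold, 7 no longer passed it and 37 newly passed it. These settings include DESeq2's unadjusted p put to the same threshold, so the 37 are not all calls by an adjusted p. Of 554 with 1 library left out 534 kept their side, 11 lost a call and 9 gained one. The cause of the changes below was not tested. In macrophages, muMt-/- against WT, 1 member was called in edgeR (2.06% of all genes), and 4 with DESeq2's unadjusted p (11.7%), 0 with filterByExpr (7.76%), 5 with no filter (2.29%), 2 in a fit of only the 12 libraries compared (3.43%), 0 in a robust fit (2.43%), 0 with depth as a covariate (0.106%), and 0 to 2 with 1 library left out. For GABA-treated against control muMt-/- it was 0, and 1 with no filter (0.34% of all genes). For GABA-treated muMt-/- against WT it was 0, and 2 with DESeq2's unadjusted p (4.65% of all genes), 3 with no filter (0.42%), and 0 to 1 with 1 library left out. In CD8+ T cells 0 members were called in each comparison. Between muMt-/- and WT it was 1 with DESeq2's unadjusted p (3.33% of all genes) and 1 with no filter (0.549%), between GABA-treated and control muMt-/- 1 (133 of 6663 genes) and 2 (0.0839%), and between GABA-treated muMt-/- and WT 1 with no filter (0.488%).

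With replicate number as a block (pairing), 2 members were called in macrophages between muMt-/- and WT (2.15% of all genes), and 1 in CD8+ T cells between GABA-treated and control muMt-/- mice (0.03%), and no other call on a member changed. Of 54 pairs of libraries with the same number 13 correlated over 0.1, in a range of -0.39 to 0.45. The mean was highest for CD8+ T cells of control with GABA-treated muMt-/- mice, at 0.12 against -0.02 for other numbers, with 3 of 6 over 0.1. The labels do not say whether the numbers pair libraries.

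Between macrophages and T cells 9 members were called in WT, 7 in muMt-/- and 9 in GABA-treated mice, and in WT 8 on total molecules per library (20.4% of all genes). With filterByExpr, which tested 9 members, it was 8, 6 and 9 (44.6%, 46.6% and 46.3%).

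The number of correlated pairs of members was 3, and 7 on molecules per library total. Library size from the genes tested, an alternative added after seeing the data because an earlier analysis called 1 gene fewer, gave 194 genes instead of 195 between muMt-/- and WT macrophages and the same member counts. That setting briefly stood as the test itself before the first one was restored. Leaving out 3 libraries was also chosen after seeing the data, and changed no member count.

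Limits: libraries hold 100 cells, so members with few molecules (Ccl24, and Ccl6, Ccl7, Ccl8, Ccl9 and Ccl12 in T cells) are measured with large counting error. Depth differs between groups, and with depth as a covariate 10 genes instead of 195 were called between muMt-/- and WT macrophages. Batches are not given. The labels say neither whether libraries of the 2 cell types share mice nor the age or sex of each mouse. The study gives age and sex only for its mice as a whole. RNA was measured, not secreted protein.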
